A study of Drosophila melanogaster with 6 samples.

Results

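The UDP-glycosyltransferases (Ugt genes) and the cytosolic glutathione S-transferases (Gst genes) are the enzymes that join a sugar or glutathione to small molecules. Their RNA was followed here in sorted brain astrocytes of the fly Drosophila melanogaster. Members were all rows of the deposited count table whose symbol begins with Ugt and a digit, or with Gst, 1 of the class letters D, E, O, S, T or Z, and a digit. There were 52 members among 16666 symbols, 17 of them Ugt and 35 Gst. By their current names in a RefSeq gene table (Release 6 plus ISO1 MT) they fell into 12 subfamilies, 6 in each family, and 17 members are listed there under a newer name.

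Ugt enzymes sit in the membrane of the endoplasmic reticulum and move the sugar of a UDP-sugar, in insects mostly glucose, onto lipophilic acceptors such as plant toxins, pigments and hormones. Gst enzymes of the cytosol conjugate glutathione to electrophiles, among them insecticides and the aldehydes that form when membrane lipids are oxidised. Both modifications make the product more soluble, so that transporters can export it. In flies many of these genes lie in clusters of tandem copies, and odorant-degrading roles have been proposed for those found in olfactory organs.

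Astrocytes are glia that infiltrate the synaptic neuropil, and the series profiled them after neuronal remodelling in adults (4 libraries) and before it, at the third larval instar (L3, 2 libraries). All flies had the genotype UAS-mCD8::GFP; Alrm-Gal4; UAS-RedStinger and were reared at 25 °C. The astrocyte driver Alrm-Gal4 thus expressed a membrane-bound green reporter and a red reporter that was used for sorting. Each library came from a pool of 1000 sorted red cells, and adult brains were digested with enzyme for 30 min and L3 brains for 15 min, so stage and digestion time cannot be told apart. The labels do not give the sex or the age of the adults, or say whether pools came from separate dissections, so p-values measure the spread between these libraries only. Totals were 745129 to 1287871 counts in the adult libraries and 2641671 and 1923097 in L3 libraries 1 and 2. Levels are given in CPM, each gene's count scaled to the total of its library. Sums of 8 astrocyte marker genes were 9285 to 14064 CPM in adult and 3382 and 5283 CPM in L3, and those of 3 pan-glial markers were 2330 to 4008 CPM in adult and 835 and 843 CPM in L3. Of the 8 astrocyte markers 6 were higher in adult and 1 lower, and all 3 pan-glial markers were higher. Among all symbols tested as described below, 9.65% were higher and 13.1% lower. alrm itself, an astrocyte gene of the leucine-rich repeat type, had 994 to 1628 CPM in adult and 861 and 1346 CPM in L3.

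Neighbouring symbols of the table often carried the same counts, and such neighbours were treated as 1 unit. Symbols were joined when they lay at most 10 rows apart, each had at least 30 counts, and their counts over the 6 libraries differed by less than 5% of their sum. Of the 52 members 21 shared counts in this way, 15 with another member and 9 with a gene of another kind, and the 52 symbols made 43 units. Ugt86Dg, Ugt86De and Ugt35b formed 1 unit, and only 18 of the 1730 counts of Ugt35b were not also counted for Ugt86De. GstD10, GstD9 and GstD1 formed another, in which 12 of the 2770 counts of GstD1 were not counted for GstD9. The other member units were Ugt86Dc with Ugt86Da, GstT1 with GstT2, GstZ1 with GstZ2, and GstD5 with GstD6 and GstD7. For these units the counts do not tell which gene the RNA came from. Tandem copies can also be alike in sequence, and how reads that match several copies were counted is not given in the sources used here.

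Some of the partners were genes of other families. Ugt58Fa had the same count in every library as RpS24, a ribosomal protein gene, and as CG3732 and Cdk9. GstS1 shared its counts with CG6984, which had 15 more in all. The GstD1 unit had the counts of Tim17a1, a gene of the mitochondrial protein import machinery. GstE13 shared counts with CG18659, GstT4 with CG1998, GstO2 with CG6683 and Ugt86Di with CheA86a. Members also resembled genes far away in the table: the unit of Ugt86Dc and Ugt86Da differed from CG7084 by 0.3% of their summed counts, and GstD3 from NPFR, a neuropeptide receptor gene, by 1.15%. Each of these values could belong to the partner, though whether reads were shared with the far genes was not tested.

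**Figure D1:**
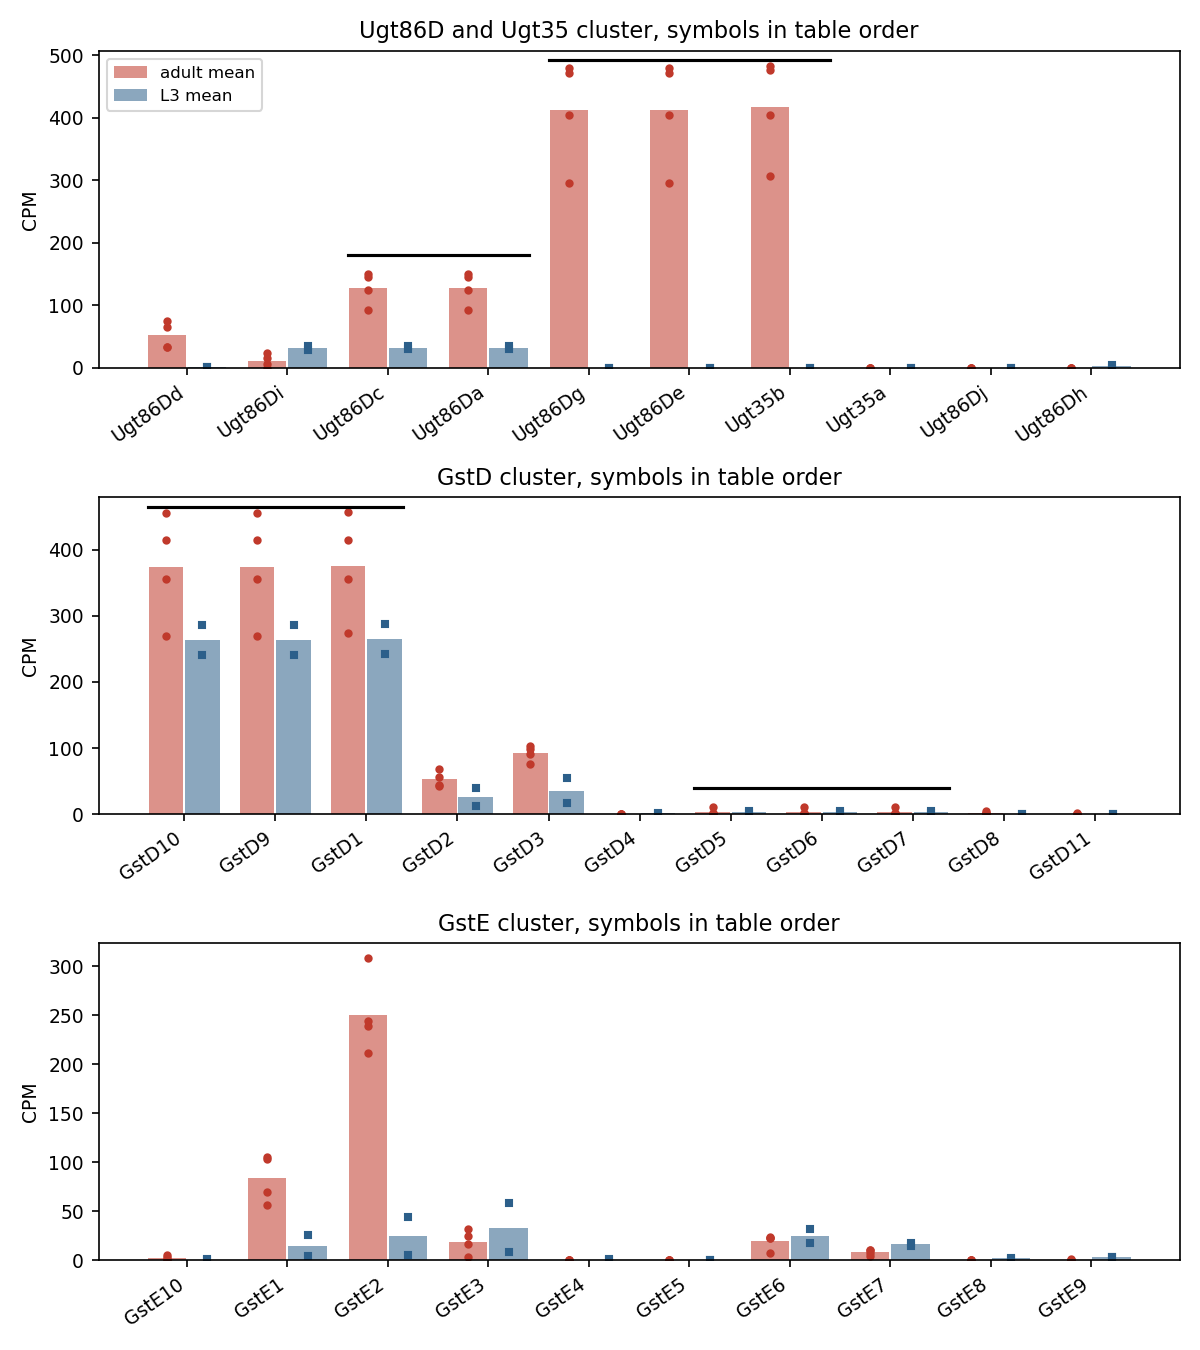
Levels in CPM (vertical axis) of the symbols in 3 gene clusters, in table order, with adult means as red bars left of L3 means as blue bars and single libraries as points; black lines join members that share counts. In the Ugt86D and Ugt35 cluster the 3 symbols from Ugt86Dg to Ugt35b carry nearly the same adult counts, and in the GstE cluster GstE2 and GstE1 stand above their neighbours in adult.

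Stage differences were tested with edgeR's quasi-likelihood method on all genes, with Benjamini-Hochberg adjustment over the 9082 symbols that passed a filter on low counts. The filter kept 30 of the 52 members, in 23 of the 43 units. Of these 23 units 6 were higher in adult (26.1%) and 5 lower (21.7%) at an adjusted p under 0.05. With 1 row kept per group of shared counts in the whole table, 8.99% of rows were higher and 11.9% lower. In symbols this was 9 higher and 5 lower of 30, where 9.65% of all tested symbols were higher and 13.1% lower. The members that were higher were the Ugt35b unit, Ugt86Dd, the unit of Ugt86Dc and Ugt86Da, GstE2, GstE1 and GstD3. Those that were lower were GstO3, GstE11, Ugt37b1, GstS1 and Ugt58Fa. Libraries of the 2 stages did not overlap in 16 of the 23 tested units (69.6%), where 37.7% of all tested symbols did not overlap. The median log2 fold change (adult minus L3) of the 23 units was -0.28, against -0.14 for all tested symbols. The units were thus spread to both sides, and the counts of calls describe the tested units and not all members. Units at or near 0 in 1 stage, such as the Ugt35b unit, Ugt86Dd, GstE11 and GstO3, passed the filter only through the stage where they are high and had to differ. GstE2 and GstE1 also passed the filter only through the adult libraries. Nothing is therefore read from the count of calls against the background. Of the 6 higher units 2 resembled a far gene in their counts, and of the 5 lower units 2 shared counts with a neighbour of another kind. Without these, 4 higher and 3 lower units were left.

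**Figure D2:**
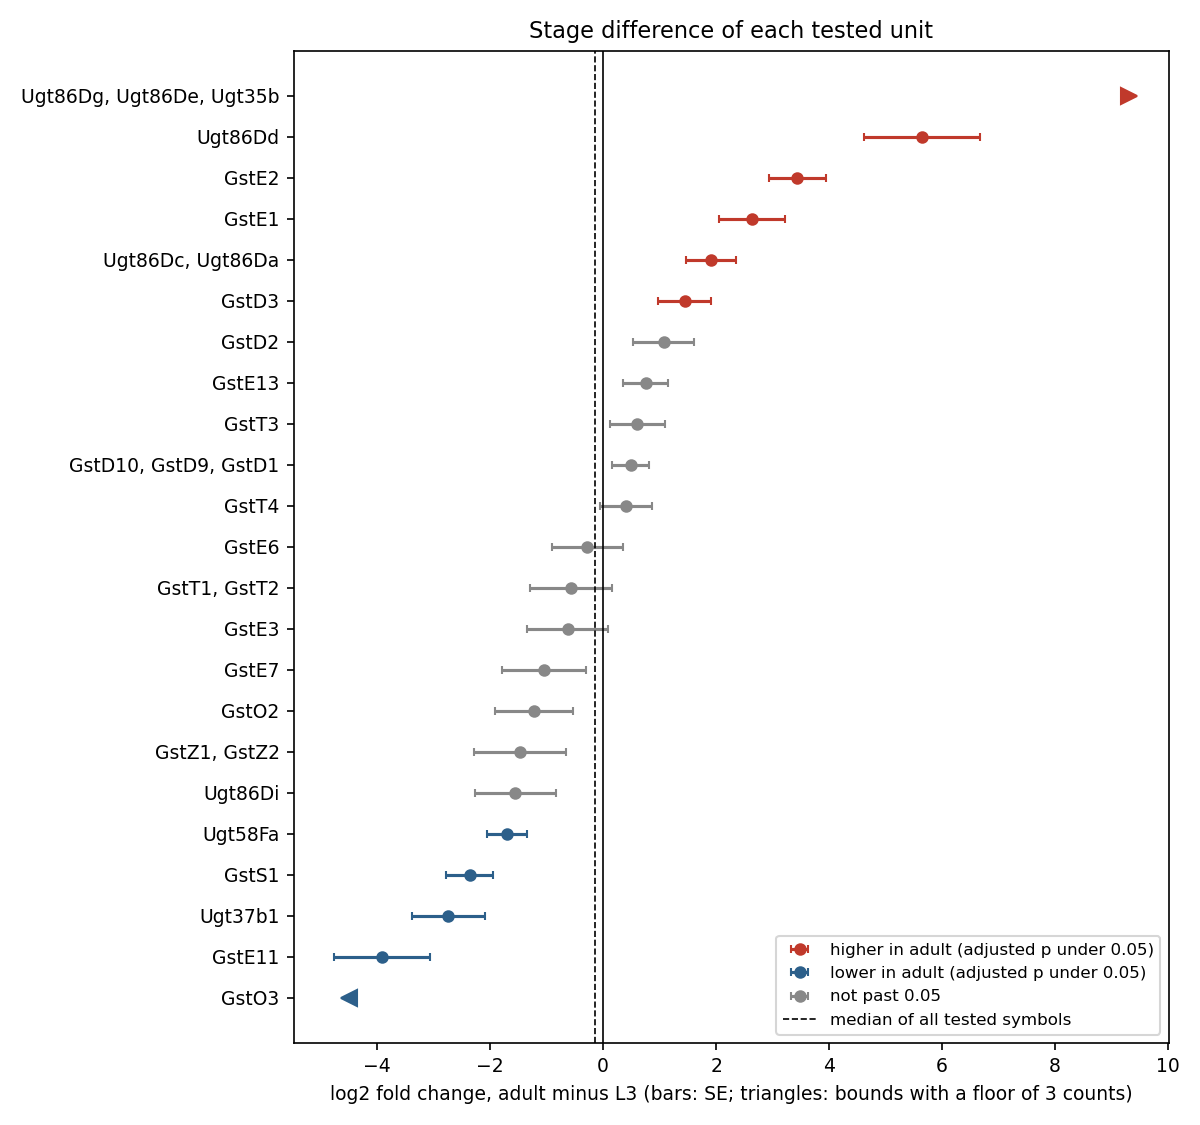
Log2 fold change, adult minus L3 (horizontal axis), of the 23 tested units with its standard error (SE) as a bar; triangles are bounds for units with no count in 1 stage, and the dashed line is the median of all tested symbols. The unit of Ugt86Dg, Ugt86De and Ugt35b lies farthest to the right and GstO3 farthest to the left.

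The Ugt35 subfamily held the largest rise. Ugt35b, first described for its expression in olfactory organs, had 476, 483, 307 and 404 CPM in adult libraries 1 to 4 and no count in either L3 library. The adult mean of 417 ± 82.0 CPM (SD, n = 4) was at least 635-fold higher than the floor of 0.657 CPM that 3 counts over both L3 libraries would give (adjusted p = 5.98e-08). The unit's neighbours Ugt86Dg and Ugt86De carried all but 18 of these counts, so the rise belongs to 1 or more of the 3 genes. As these are pools of sorted cells, more cells that express a gene and more RNA per cell cannot be told apart, here or below.

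Ugt86Dd, a gene linked to nicotine resistance of fly larvae and now named Ugt35C1, lies a few rows away with counts of its own. It had 33.4, 65.8, 74.5 and 34.2 CPM in adult and 0.757 and 1.04 CPM in L3, which were 2 counts in each L3 library. Every adult library was above both L3 libraries, and the gene rose (log2 fold change 5.65, SE 1.02, adjusted p = 0.000309). The ratio of the pooled counts was 55.4, with a 95% counting interval of 21.3 to 205. Ugt35a, listed right after Ugt35b, had no count in any library. A count of 0 allows up to 0.724 CPM over the adult libraries and 0.657 CPM over the L3 libraries.

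The Ugt302 subfamily, in the same cluster, has 2 units, of which 1 rose. Ugt86Dc and Ugt86Da, which share counts, had 125, 145, 150.1 and 93.2 CPM in adult and 34.8 and 29.6 CPM in L3, again without overlap. The unit rose (log2 fold change 1.92, SE 0.44, adjusted p = 0.00317), with the reservation that CG7084 has nearly the same counts. Ugt86Di, with the counts of CheA86a, had 15.9, 0, 23.0 and 5.44 CPM in adult and 35.6 and 28.6 CPM in L3. All of its adult values were under both L3 values, but the difference did not pass the threshold (log2 fold change -1.56, SE 0.72, adjusted p = 0.127). The cluster's last symbols belong to subfamilies of their own by their current names, Ugt304 and Ugt303. Of them Ugt86Dj had no count, and Ugt86Dh had 9 counts, all from L3 library 2.

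Of the 6 members of the Ugt37 subfamily only Ugt37b1 was tested. It fell: its adult libraries had 19.2, 1.34, 0 and 19.4 CPM and its L3 libraries 50.0 and 110.2 CPM (log2 fold change -2.74, SE 0.64, adjusted p = 0.00345). The adult values were spread from no count to 19.4 CPM, and none reached an L3 value. With edgeR's earlier quasi-likelihood method the adjusted p was 0.092, past the threshold no longer. Without L3 library 2 the adjusted p was 0.0562. Ugt37c1 was not tested, with no count in any adult library and 17 and 12 counts in L3, a mean of 6.34 CPM. Of the 4 other symbols, Ugt36Ba had 4 counts, all in L3 library 1, Ugt37a1 had 7, all in adult library 4, and Ugt36Bb and Ugt36Bc had none.

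Ugt58Fa, now named Ugt317A1, fell, but with the counts of RpS24. It had 94.3, 170.4, 107 and 90.8 CPM in adult and 376 and 336 CPM in L3 (log2 fold change -1.70, SE 0.35, adjusted p = 0.00108). The counts do not tell whether any of this RNA was Ugt58Fa.

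The current RefSeq names list 35 Ugt genes in the table, so 18 more lay under older symbols and are no members. Of these 18, 7 were tested, with a median log2 fold change of 0.50. Of the 7, 1 was higher in adult and 0 were lower, where 9.65% of all tested symbols were higher and 13.1% lower. The one that rose was CG4302, now Ugt49B1, which shares counts with CG44245 and averaged 205 CPM in adult and 85.1 CPM in L3 (log2 fold change 1.26, SE 0.36, adjusted p = 0.0147). It was not called when either L3 library was left out. CG3797, now Ugt316A1, shares counts with Mkp3 and had a mean of 236 CPM in adult and 128 CPM in L3 with a wide adult range of 91.0 to 436 CPM (adjusted p = 0.176). CG31002, now Ugt35D1 and thus a further gene of the Ugt35 subfamily, averaged 3.58 CPM in adult and 9.39 CPM in L3 (adjusted p = 0.485). CG5724 and CG5999, now Ugt37A2 and Ugt37A3, are further genes of the Ugt37 subfamily. CG5724 averaged 13.9 CPM in adult and 9.03 CPM in L3 (adjusted p = 0.746), and CG5999, not tested, 4.38 CPM in adult and 1.14 CPM in L3.

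**Figure D3:**
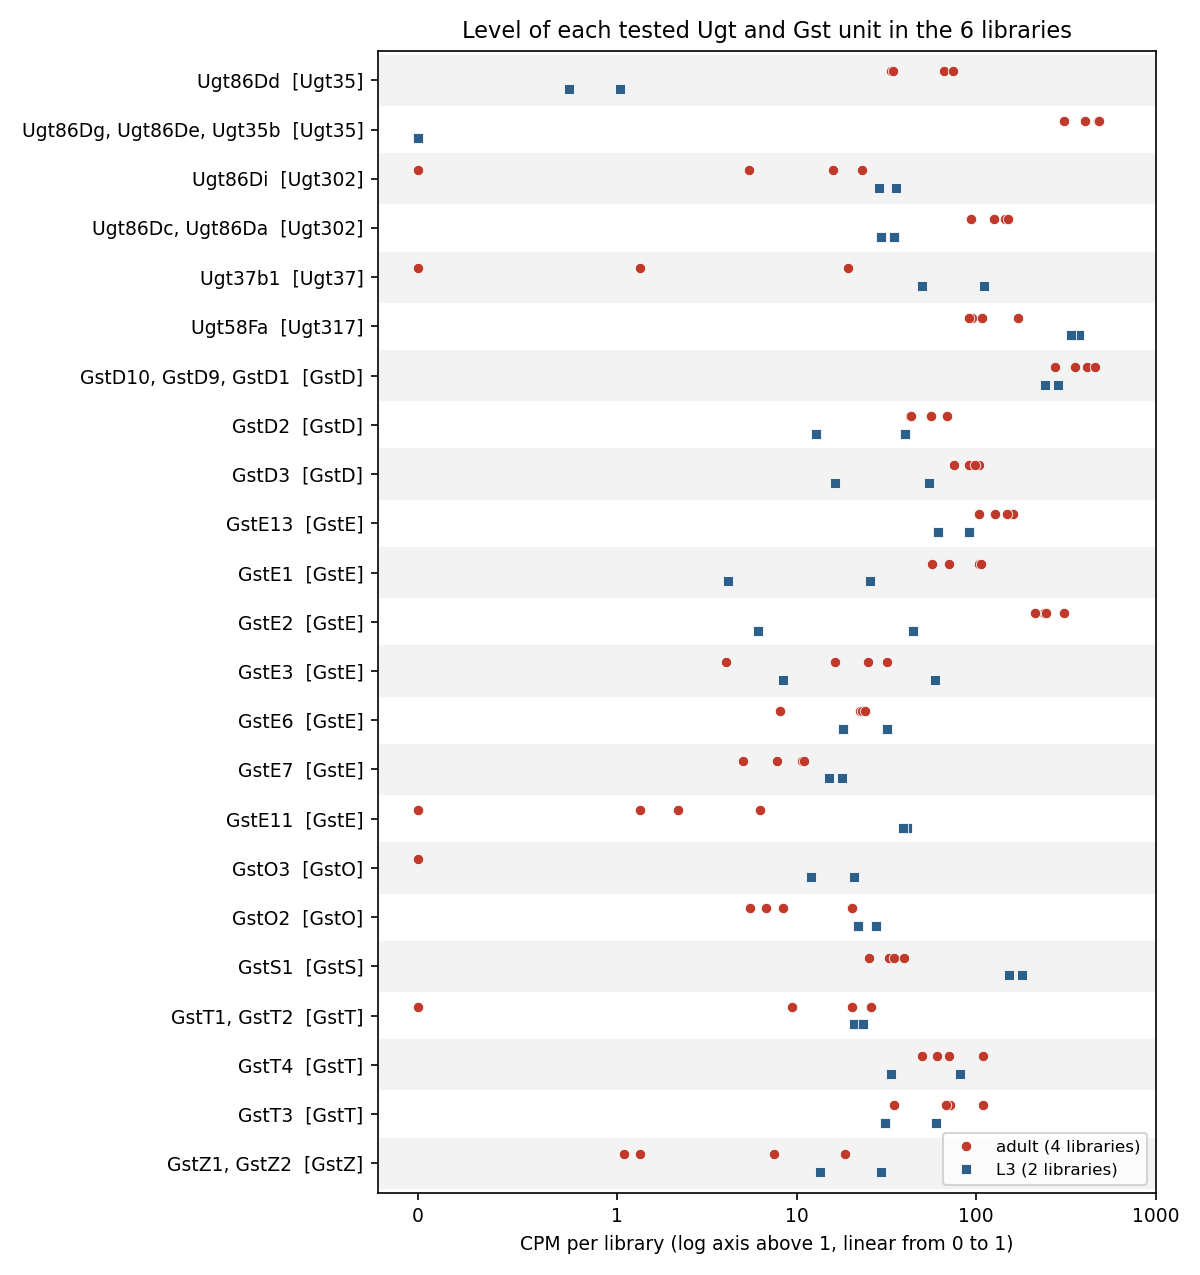
Level in CPM per library (horizontal axis, logarithmic above 1 and linear from 0 to 1) of the 23 tested units, with adult libraries as red circles above L3 libraries as blue squares. The Ugt35b unit sits at 0 in both L3 libraries and at 307 to 483 CPM in adult, while the GstD1 unit overlaps between stages.

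Among the delta class, the insect-specific class to which the DDT-metabolising enzyme GstD1 belongs, only GstD3 passed the threshold. The unit of GstD10, GstD9 and GstD1 had 415, 274, 457 and 356 CPM in adult and 243 and 287 CPM in L3. The adult value of library 2 lay within the L3 range, and the difference was within the spread (log2 fold change 0.49, SE 0.32, adjusted p = 0.305). GstD3 had 104, 91.3, 98.6 and 75.3 CPM in adult and 16.3 and 54.6 CPM in L3 (log2 fold change 1.44, SE 0.48, adjusted p = 0.0324). Its L3 libraries differed 3.35-fold, and the log2 fold change was 0.89 without L3 library 1 (adjusted p = 0.386) and 2.31 without L3 library 2 (adjusted p = 0.0206). Without adult library 1 the adjusted p was 0.0675, with DESeq2 it was 0.0592, and NPFR has nearly the same counts as GstD3.

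GstD2 had 68.5, 42.9, 55.9 and 43.5 CPM in adult and 12.9 and 40.0 CPM in L3, all adult values above both L3 values (log2 fold change 1.07, SE 0.54, adjusted p = 0.162). Its counts differed from those of GstD3 by 22.7% of their sum. Farther along the cluster the levels were low. The unit of GstD5, GstD6 and GstD7 averaged 3.41 CPM in adult and 3.03 CPM in L3. GstD4 had no adult count and 6 in L3, GstD8 had 10 counts in adult and 3 in L3, and GstD11 had 4 in adult and 1 in L3.

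The epsilon class, the other large insect-specific class, held the largest rises among the tested Gst units, and a fall. GstE2 had 239, 212, 308 and 244 CPM in adult and 6.06 and 44.2 CPM in L3. Every adult library was far above the higher L3 library, and GstE2 rose (log2 fold change 3.44, SE 0.51, adjusted p = 3.46e-05). Its neighbour GstE1, known for its response to oxidative stress, had 70.1, 56.4, 103 and 106 CPM in adult and 4.16 and 25.5 CPM in L3 and rose as well (log2 fold change 2.63, SE 0.59, adjusted p = 0.00238).

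The size of both rises depended on the L3 library. L3 library 2 had 7.30 times the GstE2 level of L3 library 1, and 6.12 times the GstE1 level. The log2 fold change of GstE2 was 2.65 without L3 library 1 (adjusted p = 0.00318) and 5.17 without L3 library 2 (adjusted p = 5.23e-05). For GstE1 it was 1.88 without L3 library 1 (adjusted p = 0.0947), past the threshold no longer, and 4.15 without L3 library 2 (adjusted p = 0.00306). GstE3, GstD3, GstD2 and GstT4 were also 2.45 to 7.06 times higher in L3 library 2. Of all tested symbols, 61.6% were higher in L3 library 2, and of the 17 tested Gst units 10 were.

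The other epsilon genes of the cluster did not follow GstE2 past the threshold. GstE3 had 25.0, 4.03, 31.8 and 16.3 CPM in adult and 8.33 and 58.8 CPM in L3, so that the L3 values enclosed all adult values but the lowest (log2 fold change -0.63, SE 0.71, adjusted p = 0.581). GstE6 had 22.5, 8.05, 23.0 and 24.1 CPM in adult and 18.2 and 31.7 CPM in L3, with overlap (adjusted p = 0.797). GstE7 had 5.01, 10.7, 11.0 and 7.76 CPM in adult and 17.8 and 15.1 CPM in L3, lower in every adult library but not past the threshold (log2 fold change -1.05, SE 0.75, adjusted p = 0.343). GstE4, GstE5, GstE8, GstE9 and GstE10 had 1 to 18 counts each over the 6 libraries.

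Of the epsilon genes outside the cluster only GstE11 was called. It fell: it had 0, 1.34, 2.19 and 6.21 CPM in adult and 40.9 and 39.0 CPM in L3 (log2 fold change -3.92, SE 0.85, adjusted p = 0.00144). The L3 libraries were alike and far above every adult library, and without adult library 4 the log2 fold change was -5.17 (adjusted p = 0.00666). GstE13, with the counts of CG18659, had 161, 149, 127 and 104 CPM in adult and 91.2 and 60.8 CPM in L3. Its adult values all lay above the L3 values, without passing the threshold (log2 fold change 0.75, SE 0.39, adjusted p = 0.184). GstE14, the gene also called noppera-bo that serves ecdysone synthesis in the prothoracic gland, had no count in any library. GstE12 had 18 counts in adult and 5 in L3, the same in every library as CG12848 and Eps-15, under the 30 counts needed to be joined.

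In the omega class, whose members act on oxidised thiols and dehydroascorbate, GstO3 had no count in any adult library and 20.8 and 12.0 CPM in L3. Its adult level was at least 22.6-fold lower, with the floor of 0.724 CPM that 3 counts over the adult libraries give (adjusted p = 0.011). Leaving out L3 library 1 ended that call (adjusted p = 0.133), and CG6745 nearby had counts that differed by 13.1% of the sum. GstO2, with the counts of CG6683, had 8.35, 6.71, 5.48 and 20.2 CPM in adult and 27.6 and 21.8 CPM in L3 (log2 fold change -1.23, SE 0.70, adjusted p = 0.22). All 4 adult libraries were below both L3 libraries. GstO1 had 2 counts in adult and 6 in L3. The omega-class gene se, which makes a precursor of the red eye pigments and lies outside the rule, averaged 5.79 CPM in adult and 3.22 CPM in L3 and was not tested.

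GstS1 is the only sigma-class gene of the fly and is best known as a protein of flight muscle that conjugates products of lipid oxidation. It fell, to 32.6, 34.9, 25.2 and 39.6 CPM in adult, against 181 and 152 CPM in L3 (log2 fold change -2.37, SE 0.41, adjusted p = 0.000245). Both stages were narrow, at 33.1 ± 6.0 CPM in adult (SD, n = 4) and 166 ± 19.9 CPM in L3 (SD, n = 2), and no single library carried the difference. CG6984, its neighbour with the same counts, could be the source.

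The theta class and the zeta class showed no call. GstT4, with the counts of CG1998, had 109, 49.7, 70.1 and 60.6 CPM in adult and 33.3 and 81.6 CPM in L3 (adjusted p = 0.583). GstT3 had 71.8, 109, 67.9 and 34.9 CPM in adult and 31.0 and 59.8 CPM in L3 (adjusted p = 0.412). For both genes the stages overlapped. The unit of GstT1 and GstT2 averaged 13.9 ± 11.5 CPM in adult and 22.1 ± 1.82 CPM in L3, with adult library 3 at 0 (adjusted p = 0.634). GstZ1 and GstZ2, of the class that isomerises maleylacetoacetate in tyrosine breakdown, shared 7.51, 1.34, 1.10 and 18.6 CPM in adult and 29.5 and 13.5 CPM in L3 (log2 fold change -1.47, SE 0.81, adjusted p = 0.207).

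Of the 20 untested units, which hold 22 symbols, 5 had no count in any library, and none of the others averaged more than 6.34 CPM in a stage. At these depths such genes could not be compared between stages.

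Summed over member units, with shared counts taken once, both families lay higher in every adult library than in either L3 library. Subfamilies ran in both directions. The 18 Ugt genes under older symbols, some of which share counts with other genes, are in none of these sums. Together they had 362 to 752 CPM in adult and 243 and 307 CPM in L3. All Ugt member units together had 764, 866, 662 and 652 CPM in adult and 505 and 517 CPM in L3, a ratio of the means of 1.44. In adult the members of the Ugt35 subfamily gave 509, 549, 381 and 438 CPM of this, against 0.757 and 1.04 CPM in L3. CG31002, the Ugt35 gene under an older symbol, is not in this sum, and its L3 mean given above was higher than the L3 sum of the members. Ugt58Fa, whose counts are those of RpS24, gave 116 ± 37.1 CPM in adult (SD, n = 4) and 356 ± 27.6 CPM in L3 (SD, n = 2). Without Ugt58Fa and Ugt86Di, the Ugt units that share counts with a neighbour of another kind, the Ugt sum was 609 ± 78.0 CPM in adult and 123 ± 41.3 CPM in L3, a ratio of 4.97. The sum of the Ugt37 members was 11.3 ± 12.6 CPM in adult and 87.2 ± 41.4 CPM in L3. It leaves out the Ugt37 genes CG5724 and CG5999, whose means were not lower in adult. CG5724 averaged 13.9 CPM in adult and 9.03 CPM in L3, and CG5999 averaged 4.38 CPM in adult and 1.14 CPM in L3.

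The Gst sum was 1378, 1066, 1396 and 1205 CPM in adult and 815 and 1038 CPM in L3, a ratio of 1.36, with adult library 2 just above the higher L3 library. The delta class gave 591, 408, 614 and 494 CPM in adult and 277 and 387 CPM in L3, and the epsilon class 533, 447, 613 and 516 CPM in adult and 192 and 287 CPM in L3. Both sums lay higher in every adult library than in either L3 library. The omega sum ran the other way, with 8.35, 6.71, 5.48 and 21.7 CPM in adult and 50.7 and 33.8 CPM in L3. The theta sum overlapped, at 157 ± 39.2 CPM in adult and 125 ± 56.3 CPM in L3. These sums are descriptions, with no test, on the scale of counts from the 3′ end of transcripts, and they were not divided by length.

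**Figure D4:**
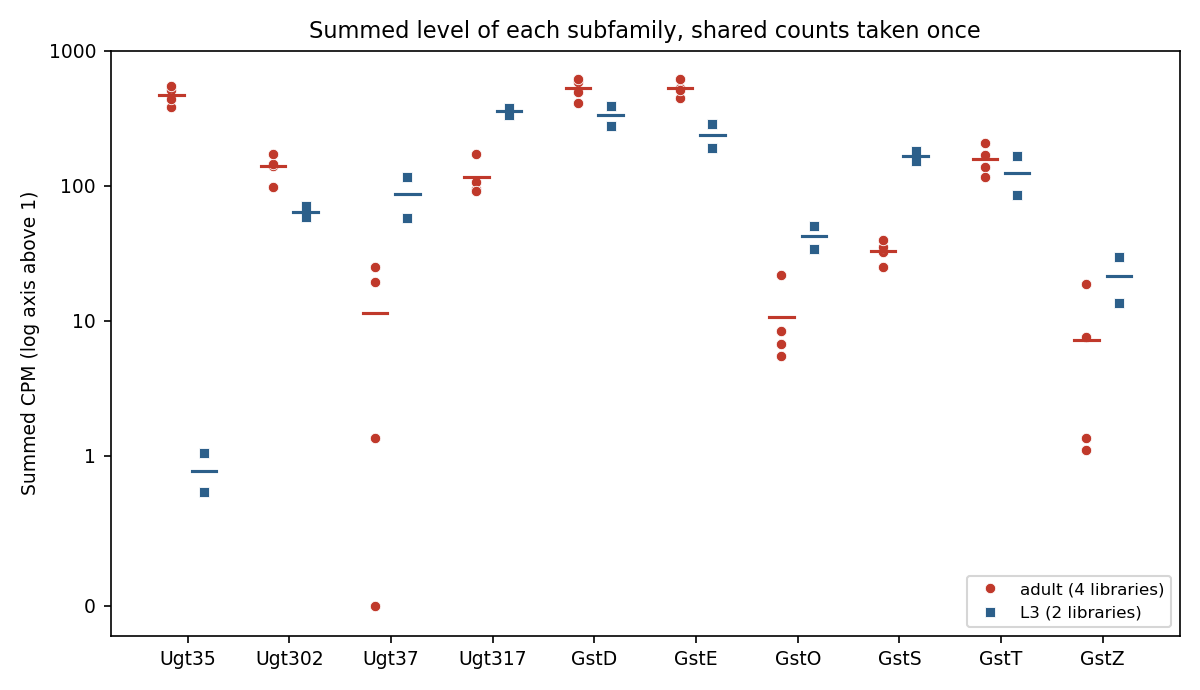
Summed CPM of each subfamily per library (vertical axis, logarithmic above 1 and linear from 0 to 1), with shared counts taken once; adult libraries are red circles left of L3 libraries as blue squares, and short lines are stage means. Ugt35, Ugt302, GstD and GstE lie higher in all adult libraries, Ugt37, Ugt317, GstO and GstS lie higher in both L3 libraries, and GstT and GstZ overlap. The sums hold members only, without the Ugt genes under older symbols.

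Calls that lean on 1 library can be read from the fits that leave each library out in turn. Of the 11 called units, 7 stayed past the threshold in all 6 such fits, namely the Ugt35b unit, Ugt86Dd, the unit of Ugt86Dc and Ugt86Da, GstE2, GstE11, GstS1 and Ugt58Fa. GstE1, GstO3 and Ugt37b1 each lost the call in 1 fit and GstD3 in 2, as given above. A fit with 1 L3 library left assumes that this library varies like the adult ones. The Ugt35b unit, Ugt86Dd, GstE2 and GstE11 passed the filter only through the stage where they are high, so nothing further is read from their staying called.

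**Figure D5:**
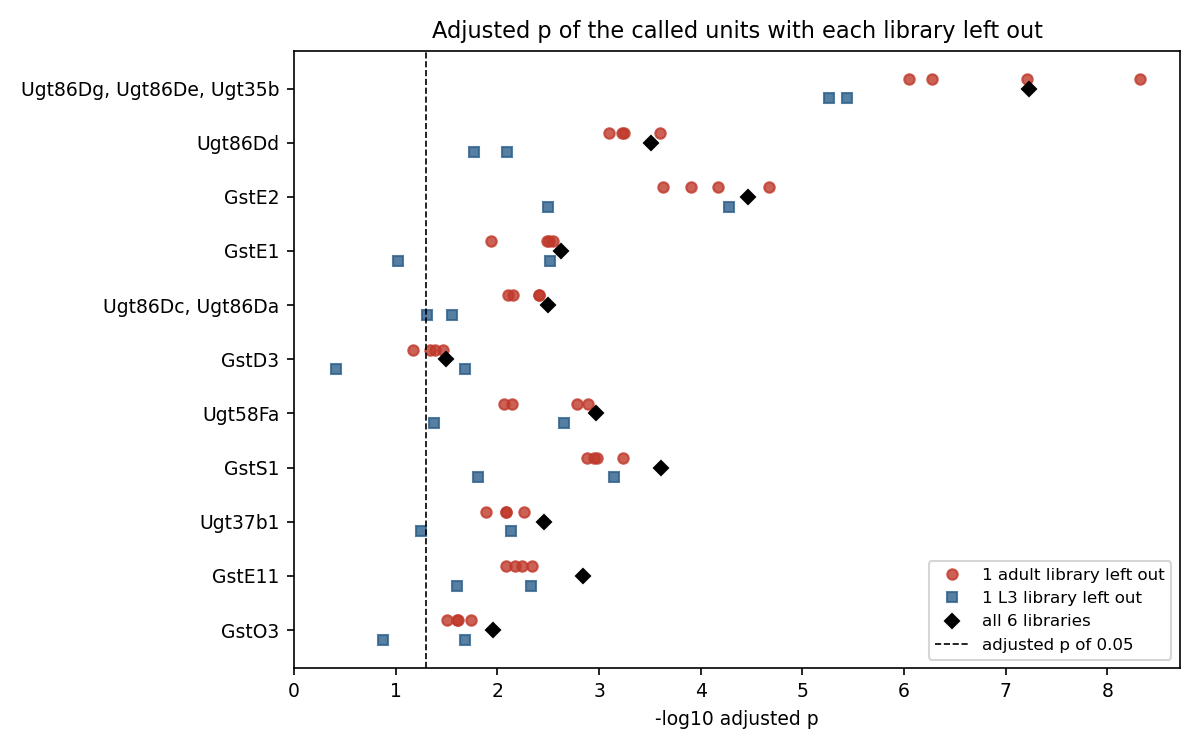
Adjusted p on a -log10 scale (horizontal axis) of the 11 called units with all 6 libraries (black diamonds), without 1 adult library (red circles) and without 1 L3 library (blue squares); the dashed line marks 0.05. The points left of the line belong to GstE1, GstD3, Ugt37b1 and GstO3.

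Genes that supply, control or work beside the conjugating enzymes were mostly not called, and their counts stand against 9.65% higher and 13.1% lower among all tested symbols. Of 4 tested genes of glutathione supply 1 was higher and 0 were lower, with a median log2 fold change of 0.36. The one that rose was Gclc, the catalytic subunit of the rate-limiting enzyme of glutathione synthesis, with 88.5, 45.6, 76.7 and 87.7 CPM in adult and 2.65 and 12.0 CPM in L3 (log2 fold change 3.48, SE 0.65, adjusted p = 0.000431). The modifier subunit gene Gclm averaged 17.4 CPM in adult and 26.2 CPM in L3 (adjusted p = 0.464). Trxr-1, a thioredoxin reductase that also keeps glutathione reduced in flies, shares counts with ND-75 and averaged 176 CPM in adult and 185 CPM in L3 (adjusted p = 0.884). Of 4 tested genes of UDP-sugar supply 0 were higher and 0 lower with edgeR, DESeq2 and limma-voom, the edgeR median log2 fold change was 0.85, and the unadjusted edgeR p was under 0.05 for 2. Pgm, a phosphoglucomutase gene that shares counts with Strumpellin, averaged 56.0 CPM in adult and 21.2 CPM in L3 (adjusted p = 0.0876).

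Of 7 regulators 1 was higher and 0 were lower, with a median log2 fold change of 0.13. Pdp1, a clock-controlled transcription factor, had 522, 484, 435 and 829 CPM in adult and 8.33 and 18.2 CPM in L3 (log2 fold change 5.46, SE 0.51, adjusted p = 1.24e-07). The fly Nrf2 gene cnc, which drives Gst genes in oxidative stress, averaged 273 CPM in adult and 180 CPM in L3 (adjusted p = 0.226), and its partner maf-S 99.6 CPM in adult and 47.4 CPM in L3 (adjusted p = 0.0747). Its inhibitor Keap1, which shares counts with mRpS11, averaged 15.9 CPM in adult and 22.4 CPM in L3 (adjusted p = 0.769). Xrp1, a stress-induced transcription factor that shares counts with Mpc1, averaged 1846 CPM in adult and 2718 CPM in L3 (adjusted p = 0.178). Of 6 listed exporters of conjugates and drugs 5 were in the table, and only Mdr50 could be tested, which shares counts with Hsc70-5 and averaged 43.5 CPM in adult and 72.1 CPM in L3 (adjusted p = 0.232). Its unadjusted p was not under 0.05, and neither DESeq2 nor limma-voom called it. Of 3 tested glutathione transferase relatives outside the rule 0 were higher and 0 lower with edgeR, DESeq2 and limma-voom, 0 had an unadjusted edgeR p under 0.05, and the median log2 fold change was -0.55. The most abundant was Mgstl, the microsomal enzyme gene, which shares counts with CR44431 and averaged 24.9 CPM in adult and 50.8 CPM in L3 (adjusted p = 0.148).

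Cytochrome P450 enzymes, which often oxidise a compound before it is conjugated, were a larger family to set beside them. Of 83 symbols beginning with Cyp and a digit, 1 of which, Cyp1, is a cyclophilin gene, 33 were tested, 4 were higher and 3 lower, with a median log2 fold change of 0.21. Among all tested symbols 9.65% were higher and 13.1% lower. DESeq2 called 4 P450 symbols higher and 0 lower. Cyp9f2, which shares counts with CG34402 and lig3, rose to 265 CPM in adult, against 42.7 CPM in L3 (log2 fold change 2.68, SE 0.41, adjusted p = 5.9e-05). Cyp6a13 rose to 80.0 CPM in adult, against 9.20 CPM in L3 (adjusted p = 0.00112). Cyp4ac2 and Cyp4ac3, with the same counts, fell to 2.71 CPM in adult, against 70.2 CPM in L3 (adjusted p = 0.000309), a fall that DESeq2 did not call. Cyp28d2, which shares counts with snmRNA:158, had the highest mean, 499 CPM in adult and 826 CPM in L3, and did not pass (adjusted p = 0.0718).

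Markers of other cells in which such enzymes are known to be active were read beside these levels. Their counts of calls stand against 9.65% higher and 13.1% lower among all tested symbols. Of 6 surface glia markers, cells of the blood-brain barrier, 5 were tested, 1 was higher and 1 lower, and their summed level was 225 to 276 CPM in adult and 97.8 and 124 CPM in L3. The transporter gene Oatp58Dc, which shares counts with Oatp58Da and Oatp58Db, was the most abundant by its mean, at 141 CPM in adult and 6.39 CPM in L3, and the barrier transporter gene Mdr65 had no count in adult. Of 7 hemocyte markers 3 were tested, 1 was higher and 0 were lower. Their sum was 937 to 1611 CPM in adult and 75.4 and 82.9 CPM in L3, and without Hml, which rose, it was 70.1 to 89.9 CPM in adult and 42.8 and 51.0 CPM in L3. Of 9 fat body markers 2 were tested, 1 was higher and 1 lower, and Fbp1 had no count in any library. Their sum was 24.8 to 55.02 CPM in adult and 26.1 and 47.8 CPM in L3. Yp2, which shares counts with CR45601 and CG15312, was the most abundant. Of 7 photoreceptor markers 4 were tested, 2 were higher and 0 lower, and trp and Arr1 had no count in any library. Their sum was 599 to 884 CPM in adult and 823 and 1386 CPM in L3. Most of it was inaD, which has the counts of RpL23, with 492 to 841 CPM in adult and 793 and 1371 CPM in L3. The 2 that were higher were ninaE, which shares counts with Ask1, and norpA. They averaged 34.4 and 32.1 CPM in adult and 9.25 and 3.78 CPM in L3. Of 12 neuron markers 11 were tested, 3 were higher and 0 lower, with sums of 409 to 616 CPM in adult and 131 and 303 CPM in L3 and Appl as the most abundant. Of 4 cortex glia markers, led by Cyp4g15, 2 were higher and 0 lower, with sums of 418 to 503 CPM in adult and 210.1 and 316 CPM in L3. Of 3 ensheathing glia markers, led by CG9657, 2 were tested, 1 was higher and 0 lower, with sums of 107 to 186 CPM in adult and 44.7 and 101 CPM in L3. The part of other cells in the Ugt and Gst differences was not tested.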

How the data were processed

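The authors deposited whole-number counts per gene symbol for 6 libraries, without normalization. The submitters' processing notes list bcl2fastq, HISAT 0.1.5 and HOMER. What each tool did, the build, the annotation and the handling of molecular identifiers are not given in any source used here. Per the labels' protocols the libraries were 3′ end libraries of a MARS-seq derivative with linear amplification, so intervals and floors cover counting error only. All 6 columns of samples were used and 0 others were present. All 52 members matched a RefSeq gene table, which served for names only. No coordinates or sequences are shown.

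CPM values divide each deposited count by its library's total, in which shared counts are repeated. The main test was edgeR 4.0.16 in R 4.3.3 (TMM scaling, filterByExpr by stage, quasi-likelihood F test, Benjamini-Hochberg adjustment over all tested symbols, threshold 0.05), checked on simulated counts. Log2 fold changes are adult over L3, and the SE of each is its size divided by the square root of F. For a gene at 0 in a whole stage, a bound is given from 3 counts summed over that stage. Distant likeness was searched among 4959 symbols with at least 200.0 counts, as a chi-square over the 6 libraries under 0.3. Unit values are those of the unit's symbol with the most counts. Named units were those called or with a stage mean of at least 10 CPM. In each list of related genes up to 2 called genes per direction, those of smallest adjusted p, and the most abundant gene are named; other genes named there, and those of the marker lists other than the most abundant, were chosen after their values were seen. The members and lists were chosen with earlier results of these data known. Alternatives used DESeq2 1.42.0, limma-voom 3.58.1, other scalings, filters, thinning, left-out libraries and other rules for sharing.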

Additional observations from a re-analysis of the deposited data

Results flagged for a closer look

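Adult values of the 23 tested units and of the subfamily sums were examined for 1 library far from the others, 32 groups of 4 in all, of which chance flags about 1 in 20. GstE6 stood out, with adult library 2 at 8.05 CPM and the other adult libraries at 22.5, 23.0 and 24.1 CPM, a gap of 0.905 of the range. GstE6 was not called in any fit.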

How the results depend on the processing

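The counts of called member units held within 1.5 times under RLE, upper quartile and unscaled totals, DESeq2 (5 higher, 5 lower), limma-voom (6 and 5) and the other rules for shared counts. Over all genes, against 876 higher and 1188 lower, DESeq2 called 687 lower. The earlier quasi-likelihood method called 1079 genes (521 higher, 558 lower), 1 row per group of shared counts gave 1258 (542 and 716), and a threshold of 0.01 gave 1160 (512 and 648). Leaving out 1 library gave 912 to 2209 calls, 403 to 1020 higher and 509 to 1189 lower, the lowest without L3 library 1 and the highest without adult library 3; member units then numbered 4 to 6 higher and 4 to 5 lower. A filter of at least 10 counts in 4 libraries left 3 lower symbols in 3 units, since GstO3 and GstE11 do not reach it. Without members that share counts with other genes, an alternative added after seeing the data, 3 symbols in 3 units were lower.

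Whether library numbers pair adult with L3 libraries is not known. Deviations of same-numbered libraries from their stage means correlated at -0.0087 and 0.0236 over 9082 genes. With 2 L3 libraries these deviations mirror each other, so the check cannot exclude pairing. On the 4 libraries that share numbers, a replicate block gave 492 calls (306 higher, 186 lower), with 5 member symbols in 3 units higher and 0 symbols in 0 units lower. The same libraries without it gave 779 and 885, with 5 units higher and 4 lower.

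Summed with every member symbol counted, the adult to L3 ratio was 3.11 for Ugt, 1441 for Ugt35 and 2.77 for Ugt302. The Ugt ratios here leave out the Ugt genes under older symbols, among them CG31002 of the Ugt35 subfamily. Without units that share counts with a neighbour of another kind, added after seeing the data, it was 4.97 for Ugt, 1.89 for Gst, 2.26 for GstD, 0.0222 for GstO and 3.98 for Ugt302. Of the named units' log2 fold changes under alternatives, 409 kept direction and side of the threshold, 22 lost the call and 2 changed sign without passing it. Those were GstE3 (-1.41 without L3 library 1 and 1.08 without L3 library 2) and GstT4 (-0.0014 without L3 library 1 and 0.97 without L3 library 2). Depth limits the 20 untested units, none above 6.34 CPM in a stage mean.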
